A study of Mus musculus with 78 samples.

Results

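The genes described here encode 6 Smad proteins and 4 receptors of the TGF-beta family, 10 genes chosen by their Entrez identifiers, and all 10 were listed in both gene tables of the series. The tables hold 15218 genes at the 4-cell stage and 15342 at the 8-cell stage, of which 13604 are in both. Smart-seq2 libraries, which copy the polyadenylated RNA of one cell, were made from single blastomeres, the cells of the cleaving embryo. Every embryo carried one copy of a Brainbow-2.1 cassette at the Rosa locus and one copy of a Cre-Esr1 transgene, both under the ubiquitous CAG promoter. All embryos were given 4-hydroxytamoxifen briefly as 2-cell embryos and were then cultured to the 4-cell or the 8-cell stage, so both groups share the transgenes, the drug and the culture, and no untreated embryo is among the samples. The labels name 36 blastomeres of 9 embryos at the 4-cell stage and 31 blastomeres of 4 embryos at the 8-cell stage. The tables have 24 and 26 columns, 1 per blastomere, with names that match no blastomere of the labels. No column was therefore assigned to an embryo or lineage, each stage was treated as 1 sample, and the values of the stages are described with no test.

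Ligands of the TGF-beta family bring together type I and type II receptors, which are serine/threonine kinases. The type II receptor phosphorylates the type I receptor, and this in turn phosphorylates a receptor-regulated Smad, which joins the common partner Smad4 and enters the nucleus. Activin, Nodal and TGF-beta act through Smad2 and Smad3, whereas bone morphogenetic proteins (BMPs) act mainly through Smad1 and Smad5. Smad7 is an inhibitory Smad that binds type I receptors and is itself a target of the pathway in many cells. In the mouse embryo Nodal and BMP signals are best known for their parts in patterning around implantation and gastrulation, after the stages measured here.

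The Smads and receptors ranged from detected in nearly all blastomeres to detected in none (see the plot of levels per blastomere). Values are FPKM, fragment counts scaled to transcript length and library total, and a gene was called detected in a blastomere above an FPKM of 1. Smad2, Smad4 and Bmpr1a were detected in most blastomeres, Bmpr2 in about as many as not, and Smad3 and Smad7 in a minority. Acvr2b, Smad5, Acvr1b and Smad1 were detected in 5 or fewer blastomeres of each stage. At the 4-cell stage 4 of the 10 genes were detected in at least 50% of the blastomeres, against 45.2% of all listed genes. At the 8-cell stage 3 of the 10 genes reached this share, against 41.2% of all listed genes. Genes detected in at most 2 blastomeres made up 3 of the 10 at the 4-cell stage, beside 29.2% of listed genes, and 4 of the 10 at the 8-cell stage, beside 33.3%. The shares of the set were thus near those of listed genes in general.

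**Figure D1:**
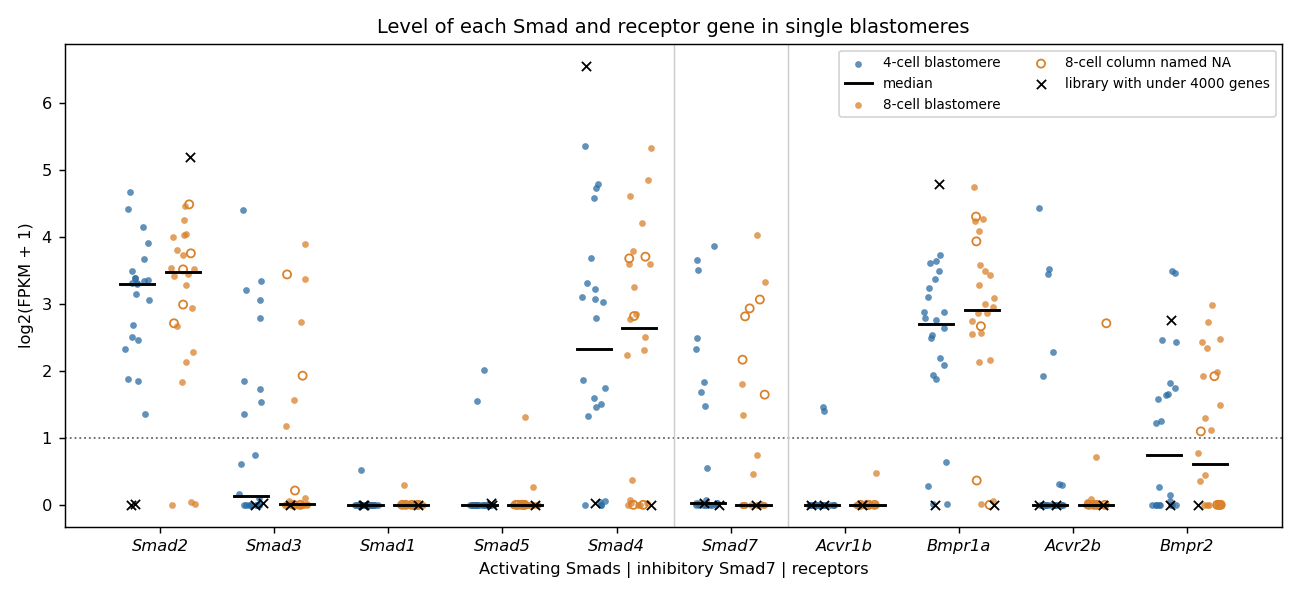
Level of each gene in every blastomere, as log2(FPKM + 1), at the 4-cell stage (blue, 24 blastomeres) and the 8-cell stage (orange, 26 blastomeres); bars are medians, open circles the 5 columns named NA, crosses the 3 libraries with under 4000 genes, and the dotted line an FPKM of 1. Smad2, Smad4 and Bmpr1a lie mostly well above the line, and Smad1, Smad5 and Acvr1b lie almost wholly at 0.

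Among the activating Smads, Smad2 was the most widely detected. Smad2 (Entrez 17126, chr18:76241090-76311748 in GRCm38.p6) is, with Smad3, a Smad phosphorylated by activin and Nodal receptors. At the 4-cell stage its FPKM ran from 0 through a median of 8.89 to 24.5, and 22 of 24 blastomeres were above 1 (91.7%, exact binomial 95% interval 73.0% to 99.0%). Among 8-cell blastomeres it ran from 0 through a median of 10.2 to 35.9, and 23 of 26 were above 1 (88.5%, interval 69.8% to 97.6%). The 35.9 was in S57, the shallowest library, and the next value was 21.5. Apart from S57, the ranges of the stages overlapped over nearly their whole length. Such intervals, here and below, cover counting error only, since blastomeres of one embryo are not independent and reads carried no molecular identifiers.

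Smad2 was either clearly present or almost wholly absent. The lowest value above 1 was 1.57 at the 4-cell stage and 2.58 at the 8-cell stage. The blastomeres not above 1 reached only 0.0113 and 0.0253, which the FPKM steps place at 1 and at 4 fragments at most. An FPKM of 1 stood for 62.8 to 154 fragments of Smad2 in a 4-cell library and for 115 to 199 in an 8-cell library apart from S57, where it stood for 21.3, so the threshold lay well above a single fragment. A value of 0 says that Smad2 was not detectable at this depth, not that the blastomere held none of its RNA. Both 4-cell blastomeres without Smad2, S18 and S20, were the libraries with the fewest detected genes of that stage. The 8-cell blastomeres without it were S53, S63 and S68.

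Smad3, the close relative of Smad2 in the same branch, was sparser. Smad3 (Entrez 17127, chr9:63646766-63757994) had a median of 0.0972 and a highest value of 20.2, the next being 9.19, at the 4-cell stage, with 9 of 24 blastomeres above 1 (37.5%, interval 18.8% to 59.4%). The 8-cell median was 0.00529, the highest value 13.9, and 7 of 26 were above 1 (26.9%, interval 11.6% to 47.8%). Where it was detected its median was 5.94 and 5.67, below that of Smad2 in its own detected blastomeres, 8.94 and 10.5. Every blastomere with Smad3 also held Smad2, in 9 of 9 and 7 of 7 cases, as most blastomeres did. Smad2 exceeded Smad3 in 18 of 24 and 21 of 26 blastomeres.

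The Smads of the BMP branch were near the floor. Smad1 (Entrez 17125, chromosome 8) was above 0 in 1 blastomere of each stage, at 0.438 and 0.227, and above 1 in none. The exact intervals, for counting error only, reached up to 14.2% of 4-cell and 13.2% of 8-cell blastomeres above 1. Smad5 (Entrez 17129, chr13:56703010-56742378) was above 1 in 2 of 24 blastomeres, S14 at 3.06 and S8 at 1.93, and in 1 of 26, S51 at 1.48. One of Smad1 and Smad5 was thus detected in 8.33% of 4-cell and 3.85% of 8-cell blastomeres, with intervals of 1.03% to 27% and 0.0973% to 19.6%.

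Smad4, the partner shared by both branches, was widely detected, at levels that differed widely between blastomeres. Smad4 (Entrez 17128, chr18:73634790-73703791) ran from 0 through a median of 4.29 to 93.2 at the 4-cell stage and was above 1 in 18 of 24 blastomeres (75%, interval 53.3% to 90.2%). Its 8-cell values ran from 0 through 5.29 to 39.3 and was above 1 in 16 of 26 (61.5%, interval 40.6% to 79.8%). The highest value, 93.2, was in S18, a library with few genes, and the next was 39.9. Smad2 and Smad4 were detected together in 17 of 24 blastomeres (70.8%) and 14 of 26 (53.8%). Neither was uniformly the higher, since Smad2 exceeded Smad4 in 13 of 24 and 17 of 26. The FPKM steps of Smad4 imply a length of 3338 bases in the deposited table, shorter than its 7628 bases of RefSeq exons, so its level relative to other genes is uncertain. At the RefSeq length it would be above 1 in 14 of 24 (58.3%) and 16 of 26 (61.5%), which turns the order of the stages. Smad2 and Smad4 would then be detected together in 13 of 24 and 14 of 26, so the stage difference of the pair depends on the length.

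The inhibitory Smad7 was detected in about one blastomere in 3 at both stages. Smad7 (Entrez 17131, chr18:75367365-75395935) had a median of 0.0181 and a highest value of 13.6 at the 4-cell stage, with 8 of 24 blastomeres above 1 (33.3%, interval 15.6% to 55.3%). In 8-cell blastomeres the median was 0, the highest value 15.4 in S68, the next being 9.03, and 9 of 26 were above 1 (34.6%, interval 17.2% to 55.7%). The detected values spread from 1.79 to 13.6 and from 1.54 to 15.4, so the stages overlapped. Smad7 shared a blastomere with both Smad2 and Smad4 in 6 of 24 and 6 of 26 cases.

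At the 8-cell stage the Smad7 values were unevenly spread over the columns. The table has 5 columns named NA. The labels use NA for unresolved lineage, but the 26 columns equal in number the 8-cell blastomeres of resolved lineage (13 of lineage A and 13 of lineage B), so the name need not mean that here. All 5 were above 1, from 2.13 through a median of 6.04 to 7.38, whereas 4 of the 21 named columns were (19%), with a median of 0 and a highest value of 15.4. Among all 15342 genes of the table, 7 (0.0456%) were above 1 in all 5 of these columns and in no more of the named ones than Smad7. Smad7 is 1 of these 7 by construction, since its own count set the cut-off, so the share does not measure chance. The contrast of the columns named NA with the named ones was picked out after the values were seen. The names do not say from which embryo these columns come, so whether the contrast goes with an embryo or with the column name was not tested. The share of Smad7 at the 8-cell stage is therefore 34.6% with the columns named NA and 19% without them. Of the 4 named columns above 1, S67 at 9.03 and S68 at 15.4 held more Smad7 than any column named NA.

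**Figure D2:**
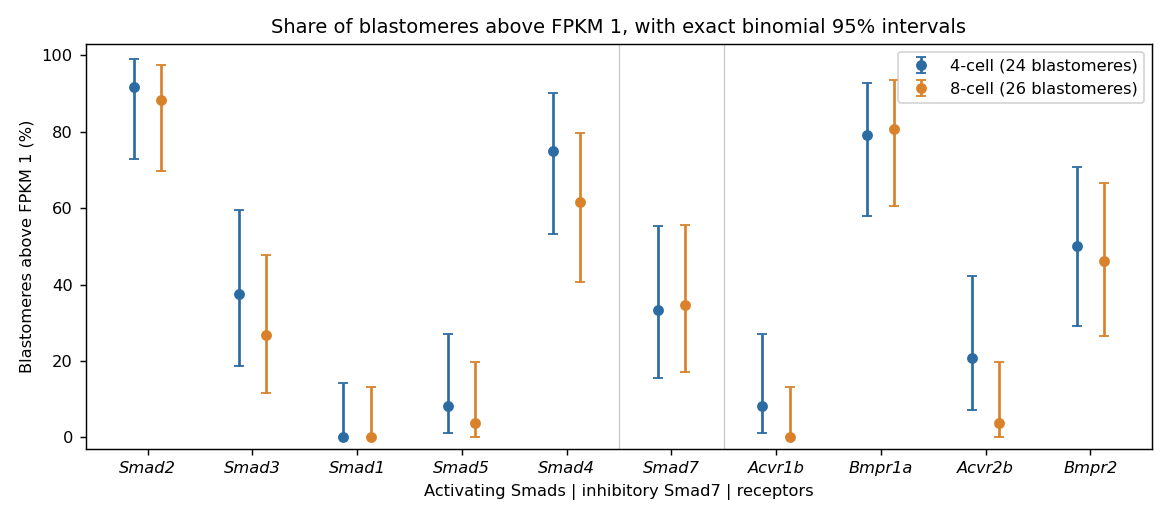
Share of blastomeres (%) with each gene above an FPKM of 1 at the 4-cell stage (blue) and the 8-cell stage (orange); points are shares and bars are exact binomial 95% intervals, which cover counting error only. The intervals of the stages overlap for each of the 10 genes, with shares from 0% for Smad1 to 91.7% for Smad2.

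Among the 4 receptors chosen here, Bmpr1a was the one detected in most blastomeres. Bmpr1a (Entrez 12166, chr14:34411061-34503336) is a type I receptor for BMP2 and BMP4. It ran from 0 through a median of 5.53 to 26.7 at the 4-cell stage and was above 1 in 19 of 24 blastomeres (79.2%, interval 57.8% to 92.9%). Later, at the 8-cell stage, it ran from 0 through 6.54 to 25.8 and was above 1 in 21 of 26 (80.8%, interval 60.6% to 93.4%). The 4-cell maximum was in S20, another library with few genes, and the next value there was 12.2.

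The other type I receptor, Acvr1b (Entrez 11479, chr15:101174072-101213684), binds activin and Nodal as ALK4. It was at 0 in 22 of 24 blastomeres and at 1.75 and 1.66 in the remaining ones, S3 and S6. In the 8-cell table it was at 0 in 25 of 26 and reached 0.387 in S59, so it was above 1 in none (exact interval up to 13.2%, for counting error only).

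The type II receptors of the set, Bmpr2 and Acvr2b, were detected in fewer blastomeres than Bmpr1a. Bmpr2 (Entrez 12168, chr1:59764279-59878081), the BMP type II receptor, had a median of 0.764 and a highest value of 10.3 at the 4-cell stage, with 12 of 24 above 1 (50%, interval 29.1% to 70.9%). The 8-cell median of Bmpr2 was 0.533, the highest value 6.95, and 12 of 26 were above 1 (46.2%, interval 26.6% to 66.6%). Bmpr1a exceeded Bmpr2 in 19 of 24 and 23 of 26 blastomeres. Acvr2b (Entrez 11481, chr9:119401583-119442148), a type II receptor for activin and Nodal, was above 1 in 5 of 24 blastomeres (20.8%, interval 7.13% to 42.2%), at 2.79 to 20.6, the second highest being 10.5. In the 8-cell table it was above 1 in 1 of 26 (3.85%, interval 0.0973% to 19.6%), at 5.56 in a column named NA, and in none of the named columns. The FPKM steps of Acvr2b imply a length of 1695 bases, against 10666 bases of RefSeq exons. At the RefSeq length it would be above 1 in 3 of 24 (12.5%) and 0 of 26.

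In order of median level, Smad2 came first at both stages, then Bmpr1a, Smad4, Bmpr2 and Smad3. The median of Smad7 was above 0 at the 4-cell stage only, and those of the others were 0. The quartile ranges of the leading genes overlapped. At the 4-cell stage they were 4.41 to 9.71 for Smad2, 2.79 to 8.68 for Bmpr1a and 1.15 to 9.71 for Smad4. The 8-cell quartiles were 5.40 to 14.6, 3.85 to 10.8 and 0.0146 to 11.7. Neighbours in the order were thus within the spread between blastomeres.

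Activating Smads were then set against Smad7 and the receptors within each blastomere. Of the 5 activating Smads, 42.5% of the gene-by-blastomere values were above 1 at the 4-cell stage (51 of 120) and 36.2% at the 8-cell stage (47 of 130). The 4 receptors gave 39.6% (38 of 96) and 32.7% (34 of 104), and Smad7 alone 33.3% and 34.6%. A blastomere held a median of 4 of the 10 genes at both stages, with a range of 1 to 7 in 4-cell and 1 to 6 in 8-cell blastomeres. The lowest number, 1, occurred in S20 at the 4-cell stage, with Bmpr1a, and in S53 and S57 at the 8-cell stage. The highest number, 7, occurred in S8, S16 and S23, and S23 was also the shallowest 4-cell library.

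Summed over the 5 genes, the activating Smads had a median of 15.3 FPKM per blastomere at the 4-cell stage, from 0.0373 to 93.3 in S18, and of 15.5 at the 8-cell stage, from 0.0474 to 52.0. The 4 receptors summed to a median of 9.27, from 2 to 26.7, and of 9.62, from 0 to 26.1. The activating sum holds 5 genes, against 1 for Smad7 and 4 for the receptors. The number of genes by itself thus favours the activating side. The activating sum exceeded Smad7 in 23 of 24 and 25 of 26 blastomeres, the exceptions being S17 and S68. It exceeded the receptor sum in 20 of 24 (83.3%, interval 62.6% to 95.3%) and 18 of 26 (69.2%, interval 48.2% to 85.7%). With Smad4 and Acvr2b set to their RefSeq exon lengths, it did so in 21 of 24 and 15 of 26. On the scale of log2(FPKM + 1), the activating sum exceeded Smad7 by a median of 3.63 at the 4-cell stage and 3.29 at the 8-cell stage. With a pseudocount of 0.1 the mean of this excess was 5.22 in place of 3.25 and 5.07 in place of 3.14. Over the receptor sum the median excess was 0.96 and 0.80 and the mean excess 0.86 and 1.06, so the order of the stages turned with the summary used. At the RefSeq lengths the medians were 0.75 and 0.28. As deposited, single blastomeres ran from -4.74 to 3.80 and from -2.10 to 5.20. The medians and means of the stages lay far inside the spread between blastomeres.

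**Figure D3:**
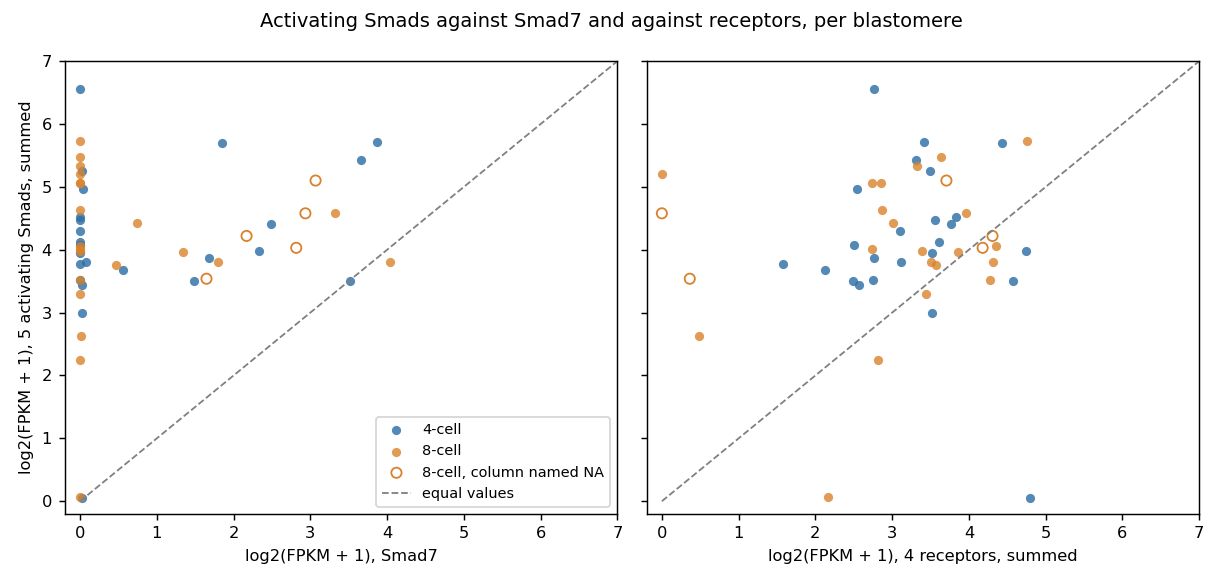
Summed activating Smads against Smad7 (left) and against the summed receptors (right), each as log2(FPKM + 1), with 1 point per blastomere (blue 4-cell, orange 8-cell, open circles the columns named NA) and a dashed line of equal values. Almost all points lie above the line against Smad7, 23 of 24 and 25 of 26, whereas 20 of 24 and 18 of 26 do against the receptors. The activating sum holds more genes than either side it is set against, which favours it.

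Complete sets of parts were rare within a single blastomere. Bmpr1a and Bmpr2 were detected together in 7 of 24 blastomeres (29.2%, interval 12.6% to 51.1%) and 11 of 26 (42.3%, interval 23.4% to 63.1%). Adding Smad4 and either Smad1 or Smad5, a whole BMP branch was detected in S8 at the 4-cell stage alone, 1 of 24 (4.17%), and in 0 of 26 at the 8-cell stage. With a threshold of 0.1 the order of the stages turned, with 4.17% of 4-cell and 11.5% of 8-cell blastomeres. The call of S8 rests on Smad4 at 1.51, which would be 0.663 at the RefSeq length, leaving 0 of 24. Acvr1b and Acvr2b were together in 0 of 24 and 0 of 26 blastomeres. A whole activin and Nodal branch from these genes was thus detected in none (exact intervals up to 14.2% and 13.2%, for counting error only). Acvr1b by itself was above 1 in only 2 of 24 and 0 of 26, so the count for the branch adds little to that of Acvr1b. Other receptors can serve in these roles. Acvr2a, a second activin type II receptor, was above 1 in 10 of 24 and 10 of 26 blastomeres, although 440 of its exon bases overlap Orc4 on the opposite strand and the libraries do not mark the strand. Tgfbr1 was above 1 in 7 and 6, whereas Acvr1c, Tgfbr2 and Acvrl1 were above 1 in none or not listed.

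Pairs of the 6 genes detected most widely gave rank correlations on both sides of 0. Spearman's rho over the 15 pairs ranged between -0.61 and 0.31 in the 24 4-cell blastomeres and between -0.32 and 0.40 in the 26 8-cell blastomeres, where blastomeres share embryos and libraries differ in depth. The lowest value was that of Bmpr1a with Bmpr2 at the 4-cell stage, and the same pair gave 0.12 at the 8-cell stage. The number of the 10 genes detected went with the number of all genes detected, with rho of 0.36 and 0.45, and its rho with the number of fragments was -0.04 and 0.01.

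The Smad and receptor genes had small differences between the stages on the log2(FPKM + 1) scale. The stage difference is the mean log2(FPKM + 1) at the 8-cell stage minus that at the 4-cell stage, and a gene was counted as past 2-fold at 1 or more in size. Of the 9 genes above 1 in at least 1 blastomere, 0 passed, although Acvr2b reached -1.07 with a pseudocount of 0.1. Over all 13041 genes compared 11.8% passed, 4.75% as higher and 7.05% as lower at the 8-cell stage. The count of 0 of 9 is near that background. With the pseudocount of 0.1 the background was larger too, at 1352 genes higher and 2255 lower at the 8-cell stage, against 620 and 919. The differences ran from -0.54 for Acvr2b to 0.30 for Bmpr1a, with a median of -0.10 against -0.06 over all genes compared. At the RefSeq length Acvr2b would be at -0.22, above the -0.33 of Smad3. Acvr2b had mean log2 values of 0.68 and 0.14, and Bmpr1a of 2.38 and 2.67. The differences were 0.21 for Smad2, -0.23 for Smad4, -0.33 for Smad3, 0.04 for Smad7, -0.11 for Bmpr2, -0.10 for Acvr1b and -0.09 for Smad5.

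Some of these small differences turned in sign when a few libraries or columns were left out or when medians were used. Without the 3 libraries with under 4000 genes (S18, S20 and S57), which hold the highest values of Smad4, Bmpr1a and Smad2, the difference of Smad2 was -0.14. That of Smad4 was 0.03 without S18 and S57 and 0.32 from medians in place of means. That of Bmpr2 was 0.0063 without S18 and S57. That of Smad7 was -0.34 without the columns named NA and -0.09 without S68. Acvr2b, Smad3 and Bmpr1a kept the sign of their means under each alternative, except that the median of Acvr2b was 0 at both stages. With the libraries rescaled to the median of broadly expressed genes, the median over all genes moved from -0.06 to -0.11. The share of the genes past 2-fold that were higher at the 8-cell stage then moved from 40.3% to 29.3%.

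**Figure D4:**
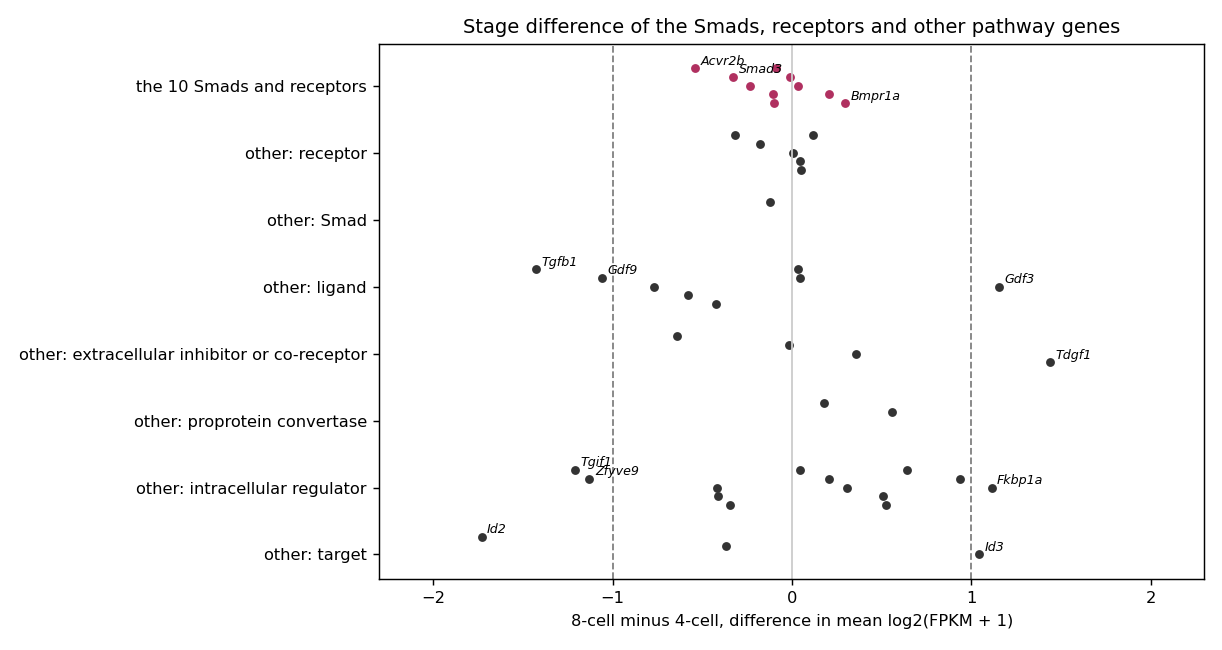
Stage difference, 8-cell minus 4-cell in mean log2(FPKM + 1), of the 10 Smads and receptors (red) and of 37 other genes of the pathway by role (black), with dashed lines at 2-fold. Each of the 10 lies between -0.54 and 0.30, and 9 other genes lie past the lines.

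Of 57 other genes of the pathway, 47 were listed at the 4-cell stage and 40 at the 8-cell stage, and 37 could be compared. Toward the 8-cell stage 4 were at least 2-fold higher and 5 at least 2-fold lower, beside 4.75% and 7.05% of all genes compared. Those detected in at least 50% of the blastomeres of either stage were 11 of 13 intracellular regulators, 3 of 16 ligands, 2 of 9 extracellular inhibitors or co-receptors, 2 of 5 target genes and 1 of 10 other receptors, 19 of the 49 listed at either stage. By the same count 42.7% of all 16956 genes listed at either stage were detected as widely.

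The other receptor detected this widely was Amhr2, the type II receptor for anti-Müllerian hormone. It was above 1 in all 24 and all 26 blastomeres, with medians of 36.6 and 41.5, above the median of each of the 10 genes described here. Smad6 and Smad9, the remaining Smads, were as sparse as Smad1 and Smad5, with 1 and 2 of 24 blastomeres above 1 at the 4-cell stage. Smad9 was above 1 in 1 of 26 blastomeres at the 8-cell stage, and Smad6 was not listed there.

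Among the ligands, Gdf3, a Nodal-related factor, was past 2-fold upward, at 1.15, with a median of 0 at the 4-cell stage and 4.03 at the 8-cell stage. That difference was 0.69 without the columns named NA. Tgfb1 had a difference of -1.43, with medians of 2.20 and 0.0408 and with 16 of 24 and 3 of 26 blastomeres above 1. Gdf9, an oocyte growth factor, had one of -1.06, and of -0.81 without the columns named NA. Nodal itself was above 1 in 1 of 24 blastomeres, at 1.97, and was not listed at the 8-cell stage. Bmp4 was above 1 in 1 of 24, at 3.01, and was likewise not listed at the 8-cell stage. Bmp2, Inha and Inhba were listed at neither stage.

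The co-receptor Tdgf1 (Cripto), which Nodal needs to act through Acvr1b, was among the most abundant genes of the pathway. Its median was 251 at the 4-cell stage and 470 at the 8-cell stage, with a difference of 1.44, and it was above 1 in 23 of 24 and 26 of 26 blastomeres. Fstl3, an extracellular inhibitor of activin, was above 1 in 18 of 24 and 20 of 26, at medians of 2.65 and 4.95. Its exons overlap those of Prss57 on the opposite strand by 1157 of 1953 bases, so without strand its value is uncertain. Lefty1 was above 1 in 1 blastomere of each stage.

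Among the intracellular regulators, Ppm1a, a phosphatase that acts on activated Smads, was above 1 in all 50 blastomeres, with medians of 385 and 427. Fkbp1a, which binds type I receptors and keeps them inactive, had medians of 97.5 and 139 and a difference of 1.11, which was 0.63 without the 3 libraries with few genes. The ubiquitin ligases Trim33, Nedd4l and Smurf2 were above 1 in 23, 21 and 16 of 24 blastomeres and in 25, 24 and 16 of 26. The acetyltransferases Ep300 and Crebbp, co-activators of Smads, were above 1 in 23 and 22 of 24 and in 23 and 21 of 26. The Smad co-repressor Ski was above 1 in 17 of 24 and 21 of 26 blastomeres, and its relative Skil in 7 and 13. Tgif1, another co-repressor, had a difference of -1.21, with medians of 13.6 and 5.24. Zfyve9 (SARA), which presents Smad2 and Smad3 to the receptor, had one of -1.13, with medians of 3.87 and 0 and with 18 of 24 and 7 of 26 blastomeres above 1.

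The Id genes, targets of BMP signalling in many cells, did not move one way. Id3 had medians of 72.9 and 219 and a difference of 1.04, which was 0.80 after rescaling and 0.64 without the libraries with few genes. Id2 had medians of 1.44 and 0 and a difference of -1.73, with 13 of 24 and 2 of 26 blastomeres above 1. Id1 was above 1 in 9 of 24 and 8 of 26, with a difference of -0.37.

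The start regions of these genes were looked at for what the sequences share. RefSeq promoter sequences (GRCm38.p6, 250 bases before to 50 after a start) were at hand for 7 of the 10 genes, all but Smad2, Smad4 and Smad7. These gave 9 windows. Their GC content was 59.3% to 79.7%, against a median of 52.7% over all 32851 windows. Bmpr1a, detected in most blastomeres, and Acvr1b, detected in almost none, had nearly the same GC content, 79.3% and 79.7%. The palindrome GGCGCC, a GC-rich element that Smad proteins can bind, was searched on both strands and was present in 5 of the 9 windows and in 11.9% of all windows. The 5 belong to Smad5, Acvr1b, Bmpr1a and Bmpr2, and both windows of Smad5 hold the same site. Since all 9 windows lay above the median GC content, the share over all windows is not a like background for GGCGCC. The element GTCTAGAC, a palindrome of the Smad box, was in none of the 9 and in 0.213% of all windows. The matches of the BMP receptor genes are shown, as the receptor genes detected together most often, with the element in capitals (Bmpr1a at chr14:34502727-34502756, minus strand, the element starting at -198 relative to the start, and Bmpr2 at chr1:59764162-59764191, plus strand, at -105).
Bmpr1a: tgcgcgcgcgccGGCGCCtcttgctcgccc
Bmpr2: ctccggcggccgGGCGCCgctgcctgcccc
A match is a description of the sequence and says nothing of binding.

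Libraries of 4-cell blastomeres had estimated totals of 6.87 M to 16.9 M fragments (median 13.4 M), and those of 8-cell blastomeres 2.33 M to 21.7 M (median 17.2 M). They held medians of 7155 and 6773 genes above an FPKM of 1. All 12 markers of early blastomeres that were checked were listed at both stages, and 10 of them were detected in at least 50% of the blastomeres of either stage. The exceptions were Ooep, above 1 in 11 of 24 and 9 of 26, and Zp2, above 1 in 7 and 5. Their summed medians of 4895 and 4602 FPKM were mostly Dppa3, at medians of 3658 and 3260. Of 8 cumulus and granulosa cell markers, 4 and 2 were listed, and they summed to at most 3.06 and 1.66 FPKM with a median of 0. Of 4 blood cell markers only Cd68 was listed, above 1 in 8 of 24 and 5 of 26 blastomeres, at medians of 0 and maxima of 40.6 and 31.5, and the pan-leukocyte marker Ptprc and the globin genes were not. No exon of the 10 Smad and receptor genes overlapped an exon of another gene.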

How the data were processed

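Smart-seq2 reads of single mouse blastomeres were aligned by the authors with STAR 2.5.1b to mm10. Unique alignments were counted with HTSeq-count on Refseq genes of the UCSC annotation. The deposited values used here are FPKM, and the gene lengths and totals that they were computed with are not given in the sources used here. The study lists reads and uniquely mapped reads per blastomere, but the columns are not named by blastomere. The stage of each table follows the study's description. The repeat tables were not used.

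Members were matched by Entrez identifier, with names and exons from RefSeq for GRCm38.p6. Members and gene lists were chosen with earlier results of these data known. Fragments per library were estimated from the steps of the FPKM values of low genes. At least 90.6% of the values used at the 4-cell stage and 91.1% at the 8-cell stage were then whole within 0.1 fragment. The step recovered 10 of 10 totals simulated for each stage, for 8466 genes at the 4-cell stage and 8589 at the 8-cell stage, within 1%. The simulation used the same RefSeq lengths as the estimate. It therefore cannot show how far the totals hold where the deposited lengths differ from RefSeq.

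A gene was detected above FPKM 1. Stage differences are on the log2(FPKM + 1) scale, which understates changes of low genes, and cover genes listed in both tables and above 1 in at least 1 blastomere. The text names all members and the pathway genes detected in at least 50% of the blastomeres of either stage or past 2-fold, at most 20. Other pathway genes were named for their role after their values were seen. Alternatives were thresholds of 0.1 and 5, a pseudocount of 0.1, rescaling, medians, no filter, and leaving out blastomeres. Python 3.11.15, numpy 2.4.6, pandas 2.3.3 and scipy 1.17.1 were used.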

Additional observations from a re-analysis of the deposited data

How the results depend on the processing

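No paired analysis was possible because no column name gives an embryo, a lineage or a replicate number. This holds for the names alone. Column order and the study's read counts per blastomere were not used to assign columns to embryos, and pairing by them was not tested. With a threshold of 5 in place of 1, the share of receptor values detected moved from 39.6% to 19.8% at the 4-cell stage and was 19.2% in place of 32.7% in 8-cell blastomeres. That of Smad7 was 12.5% in place of 33.3% and 19.2% in place of 34.6%, and that of the activating Smads 27.5% in place of 42.5% and 28.5% in place of 36.2%. The same threshold moved the 4-cell blastomeres with a whole BMP branch from 4.17% to 0%, and the other pathway genes detected in at least 50% of the 4-cell blastomeres from 17 to 10. With a threshold of 0.1 that branch was detected in 4.17% of 4-cell and 11.5% of 8-cell blastomeres, against 4.17% and 0%, and with Smad4 and Acvr2b at their RefSeq lengths in 0% at both stages. With a pseudocount of 0.1, the mean excess of activating Smads over Smad7 was 5.22 in place of 3.25 at the 4-cell stage and 5.07 in place of 3.14 in 8-cell blastomeres. The genes past 2-fold then numbered 1352 higher and 2255 lower at the 8-cell stage, against 620 and 919. Leaving out each blastomere in turn kept that mean excess between 3.10 and 3.39 at the 4-cell stage and between 3.04 and 3.28 at the 8-cell stage. Of the pathway genes past 2-fold, Tdgf1, Id2, Tgfb1, Tgif1 and Zfyve9 stayed past it under all 5 alternatives run for them, and Gdf3, Gdf9, Fkbp1a and Id3 did not. Others passed it under some alternatives, Nedd4l under 3 of 5, Bmp15 under 2, and Bambi, Pcsk6, Ski, Skil and Tgfb2 under 1 each. The share of 4-cell blastomeres with Smad2 was 100% without the libraries with under 4000 genes, an alternative chosen after the data were seen, as was the use of RefSeq lengths for Smad4 and Acvr2b. Depth limits what a value of 0 can show, since RNA below detection may be present in any share of the blastomeres.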

Other observations

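Acvr2b and Smad7 were often detected in the same blastomeres, a pair picked out after the values were seen. Blastomeres of one embryo are not independent, and no test was made. At the 4-cell stage 4 of the 5 blastomeres with Acvr2b above an FPKM of 1 also held Smad7, which was above 1 in 8 of all 24 (33.3%). At the 8-cell stage the 1 blastomere with Acvr2b held Smad7 as well, which was above 1 in 9 of 26 (34.6%), and that blastomere was one of the columns named NA. At the RefSeq exon length of Acvr2b, which is longer than its FPKM steps imply, 3 4-cell blastomeres would be above 1 for Acvr2b, all 3 with Smad7, and no 8-cell blastomere.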
